A study of Mus musculus with 8 samples.

Results

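The cytosolic ribosome of mammalian cells is built from ribosomal RNA and a fixed set of proteins, and the genes of these proteins are described here in mouse B lymphocytes that lack Myc, Max or both. The genes were found by symbol, as protein-coding genes named Rpl or Rps with a number, together with Rpsa, Rplp0, Rplp1 and Rplp2, leaving out pseudogenes and the S6 kinases. This gave 82 of the 15681 genes in the deposited table: 46 of the large subunit, 31 of the small subunit and 5 paralogs (Rpl7l1, Rpl22l1, Rpl36al, Rpl39l and Rps27l) set apart. All 82 passed the filter of at least 1 RPM in at least 2 libraries, which left 12489 genes. Rpl39l passed it only through the control libraries, where it was highest. A further 2 paralogs, Rpl3l and Rpl10l, were not analysed here.

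Mature B cells were sorted from spleens of mice given as 8 to 10 weeks old and were activated in culture with 20 µg/ml lipopolysaccharide, a bacterial cell wall component, and 20 ng/ml interleukin 4, a cytokine. RNA was taken at 72 h. The 4 groups, with 2 libraries each, were cells with a Myc knock-out (Myc_KO), with a Max knock-out (Max_KO), with both (double_KO), and heterozygous cells (control), which means that the controls were not wild type. The labels name neither the recombinase nor the promoter behind the deletions. Nothing in them ties the 2 libraries of a group to different mice. The p-values therefore measure the spread between these libraries alone, which may be technical.

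Myc activates transcription when paired with Max on DNA, and genes for ribosome biogenesis are among its best known targets. Ribosomal proteins are made in step with one another, since each mature ribosome carries them in fixed proportion, and a dividing lymphocyte spends much of its transcription on them. Their mRNAs begin with a terminal oligopyrimidine (TOP) tract, a run of C and T at the start of transcription through which the kinase mTORC1 and the RNA-binding protein Larp1 control their translation.

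For 2 libraries the labels disagreed with each other. The groups here follow the titles, which the columns of the table repeat, but Myc_KO replicate 2 is described elsewhere in its labels as a double knock-out and double_KO replicate 1 as a Myc knock-out. Myc stood at 48.3 and 55.7 RPM in Myc_KO, 192 and 176 RPM in Max_KO, 38.7 and 55.3 RPM in double_KO, and 111 and 116 RPM in control libraries. Max stood at 70.4 and 59.8 RPM in Myc_KO, 16.4 and 15.5 RPM in Max_KO, 28.6 and 31.2 RPM in double_KO, and 55.0 and 54.5 RPM in control libraries. By Max, the library titled Myc_KO replicate 2 lay with the controls and the one titled double_KO replicate 1 lay with the other double knock-out. The libraries held 14.9 to 17.9 M (10 to the power 6) estimated reads. The summed level of 7 B-cell markers was 20072 to 24597 RPM in the 6 knock-out libraries and 21955 and 21468 RPM in control libraries. All 9 T-cell markers were in the table and summed to 20.7 to 58.7 RPM in knock-out libraries, against 7.33 and 6.96 RPM in control libraries. The 5 of 6 natural killer markers in the table summed to 16.6 to 78.5 RPM in knock-out libraries, against 6.47 and 5.22 RPM in control libraries with 3 of them at 0 in each. The 6 of 9 myeloid markers in the table summed to 10.6 to 36.0 RPM in knock-out libraries, against 3.75 and 4.30 RPM in control libraries, and the 6 plasma-cell markers to 574 to 1101 RPM in knock-out libraries, against 1259 and 1206 RPM in control libraries. The 5 erythroid markers were not analysed here. The part of these other cells in the results was not tested.

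The share of reads on ribosomal protein genes was lower in every knock-out library than in both controls. The 82 genes held 6.38% and 6.397% of the estimated reads in Myc_KO, 7.26% and 7.60% in Max_KO, 7.14% and 7.15% in double_KO, and 13.4% and 12.7% in control libraries. Within the knock-outs the order by the titles was Myc_KO, double_KO and Max_KO from low to high without overlap. By the descriptions, Myc_KO would hold 6.38% and 7.14% and double_KO 7.15% and 6.397%, so that these 2 groups overlap. These shares do not depend on any scaling of the libraries. Both subunits took part: the large-subunit genes held 3.59% and 3.68% of reads in Myc_KO, 4.09% and 4.28% in Max_KO, 4.05% and 4.08% in double_KO, and 7.72% and 7.31% in control libraries. The ratio of large-subunit to small-subunit reads lay between 1.31 and 1.38 in the knock-out libraries and at 1.39 and 1.37 in control libraries. The mitochondrially encoded transcripts moved in the same direction, with 2.21% to 2.96% of reads in the knock-out libraries, against 5.69% and 4.93% in control libraries. Where this says that a transcript was lower, fewer cells of a type and less RNA per cell cannot be told apart, and the values are relative to the other transcripts of a library, not to the cell.

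**Figure D1:**
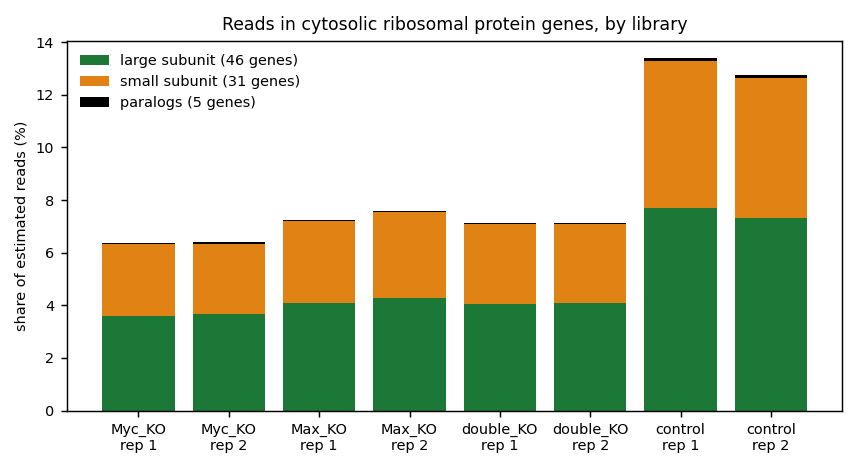
Share of the estimated reads of each library (percent, stacked bars) that fell on the 46 large-subunit genes, the 31 small-subunit genes and the 5 paralogs, for the 2 libraries of Myc_KO, Max_KO, double_KO and control. The 6 knock-out libraries lie between 6.38% and 7.60%, the control libraries at 13.4% and 12.7%.

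Gene by gene, nearly the whole set was lower in each knock-out. On the authors' log2 scale, tested with limma over all genes with Benjamini-Hochberg adjustment and a threshold of 0.05, 78 of 82 genes fell in Myc_KO, where 21.4% of all tested genes were called lower. In Max_KO 79 were called lower, against 17.4% of all tested genes, or 78 under a filter of 5 RPM, which leaves out Rpl39l, and in double_KO 78 fell, against 16.8%. In none of these comparisons did limma call a member higher, none was higher at an unadjusted p under 0.05, and voom weights gave the same counts of 78, 79 and 78 lower. The median log2 change of the 82 was -1.19 in Myc_KO, -0.93 in Max_KO and -1.02 in double_KO, beside medians of 0.00, 0.02 and 0.02 over all tested genes. The 3 comparisons share the control libraries. A change of -1.19 is a level 2.28-fold lower. At least 2-fold lower estimates were seen for 69 members in Myc_KO, 31 in Max_KO and 44 in double_KO. Both libraries of the knock-out lay below both controls for 81 members in Myc_KO, 81 in Max_KO and 82 in double_KO, where 37.1%, 35.4% and 35% of all tested genes did so. Rpl39l, which passed the filter only through the controls, is among the members in both sets of counts. Over the 77 subunit genes, without the paralogs, at least 2-fold lower estimates were seen for 65, 27 and 42 in the same order. Both libraries lay below both controls for 76, 77 and 77 of them. Set against the control mean, the median member stood at -1.20 and -1.19 in the Myc_KO libraries, -0.97 and -0.90 in Max_KO, -1.03 and -1.004 in double_KO, and 0.07 and -0.07 in control libraries. Without the 2 libraries of disputed label, 78, 78 and 79 members fell in Myc_KO, Max_KO and double_KO, with medians of -1.20, -0.93 and -1.004.

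**Figure D2:**
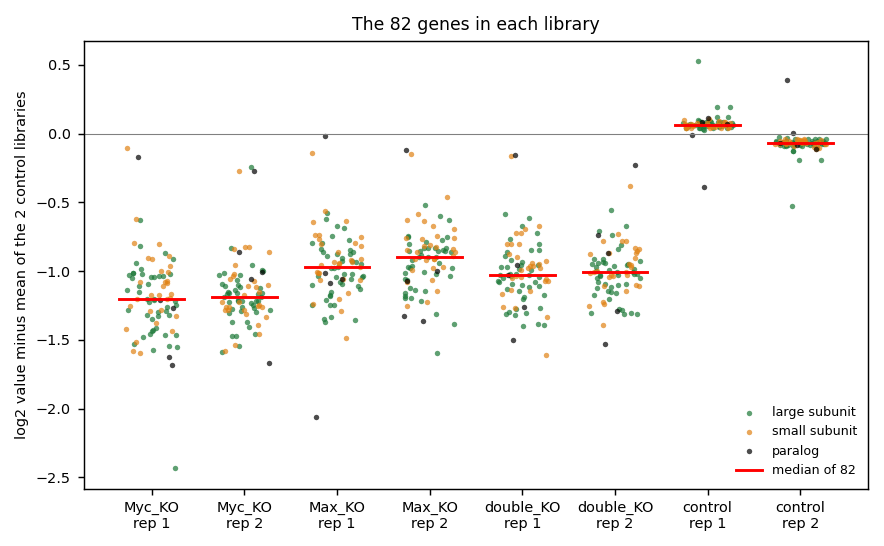
Each point is 1 of the 82 genes in 1 library, as its deposited log2 value minus the mean of the 2 control libraries, coloured by subunit, with the median of the 82 as a red line. The medians lie at -1.20 and -1.19 in Myc_KO, -0.97 and -0.90 in Max_KO, and -1.03 and -1.004 in double_KO, while the controls lie at 0.07 and -0.07.

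The subunits changed to a like extent. In Myc_KO, 45 of 46 large-subunit genes fell with a median of -1.21, and 30 of 31 small-subunit genes with a median of -1.17. In Max_KO the same numbers of genes fell, with medians of -0.95 for the large and -0.89 for the small subunit. In double_KO the counts were again 45 and 30, with medians of -1.04 and -0.97. The quartiles of all members lay at -1.29 and -1.07 in Myc_KO, at -1.06 and -0.82 in Max_KO and at -1.12 and -0.90 in double_KO, so that most genes changed by much the same factor. Over the 77 subunit genes, Spearman's rho between annotated transcript length and the log2 change was -0.02 in Myc_KO, 0.04 in Max_KO and 0.17 in double_KO, as a description across genes that share the same libraries.

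The genes that drew the most reads, a measure that grows with transcript length, fell with the rest. Rpsa, a small-subunit protein also known as the laminin receptor, had 1732 and 1544 RPM in Myc_KO, 2070 and 1976 RPM in Max_KO, 2058 and 1984 RPM in double_KO, and 4914 and 4355 RPM in control libraries. Its log2 change was -1.50 ± 0.10 (SE) in Myc_KO (adjusted p = 5.50e-05, limma). Rpl13a, which has a second role in translational silencing, had 2154 and 1957 RPM in Myc_KO, 2562 and 2416 RPM in Max_KO, 2153 and 2158 RPM in double_KO, and 4565 and 4204 RPM in control libraries. In both genes every knock-out library lay below both controls. Rpl4, whose loop lines the peptide exit tunnel, changed by -1.04 (log2) in Myc_KO, by -0.81 in Max_KO and by -0.77 in double_KO (0.0333 in double_KO under quantile normalization), and Rpl3, a core protein of the peptidyl transferase region, had -1.35, -1.04 and -1.04. Rps2 and Rps3a1, the other small-subunit genes with the most reads, had -1.26 and -1.02 in Myc_KO, -0.82 and -0.70 in Max_KO, and -0.88 and -0.82 in double_KO, all called.

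In Myc_KO, the largest falls of genes for which no near-identical copy was found in the table were in Rpl22l1, Rps18, Rpl32 and Rpl28. The estimated reads of Rps18 were whole in none of the libraries, so its reads may also be divided with other transcripts. Rps18, a protein of the head of the small subunit, had 721 and 743 RPM in Myc_KO, 933 and 972 RPM in Max_KO, 900 and 904 RPM in double_KO, and 2272 and 2041 RPM in control libraries. Its log2 change was -1.56 ± 0.08 (SE) in Myc_KO, with an adjusted p of 4.34e-05 by limma, and no knock-out library overlapped with the controls. Rpl32, of the large subunit, had 690 and 730 RPM in Myc_KO, 784 and 871 RPM in Max_KO, 770 and 818 RPM in double_KO, and 2156 and 1902 RPM in control libraries. Rpl28, also of the large subunit, had 774 and 733 RPM in Myc_KO, 846 and 933 RPM in Max_KO, 817 and 861 RPM in double_KO, and 2248 and 2030 RPM in control libraries. For Rpl32 and Rpl28 the changes were -1.51 and -1.50 in Myc_KO, -1.29 and -1.27 in Max_KO, and -1.35 for each in double_KO. Rps19, the first gene found mutated in human Diamond-Blackfan anaemia, had 617 and 710 RPM in Myc_KO, 890 and 949 RPM in Max_KO, 887 and 869 RPM in double_KO, and 1936 and 1797 RPM in control libraries. Its log2 change was -1.50 in Myc_KO, -1.02 in Max_KO and -1.09 in double_KO. Rpl36 had a log2 change of -1.42 in Myc_KO, of -1.27 in Max_KO and of -1.34 in double_KO, and Rps27a, whose protein is made as a fusion with ubiquitin, had -1.49, -1.25 and -1.25.

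**Figure D3:**
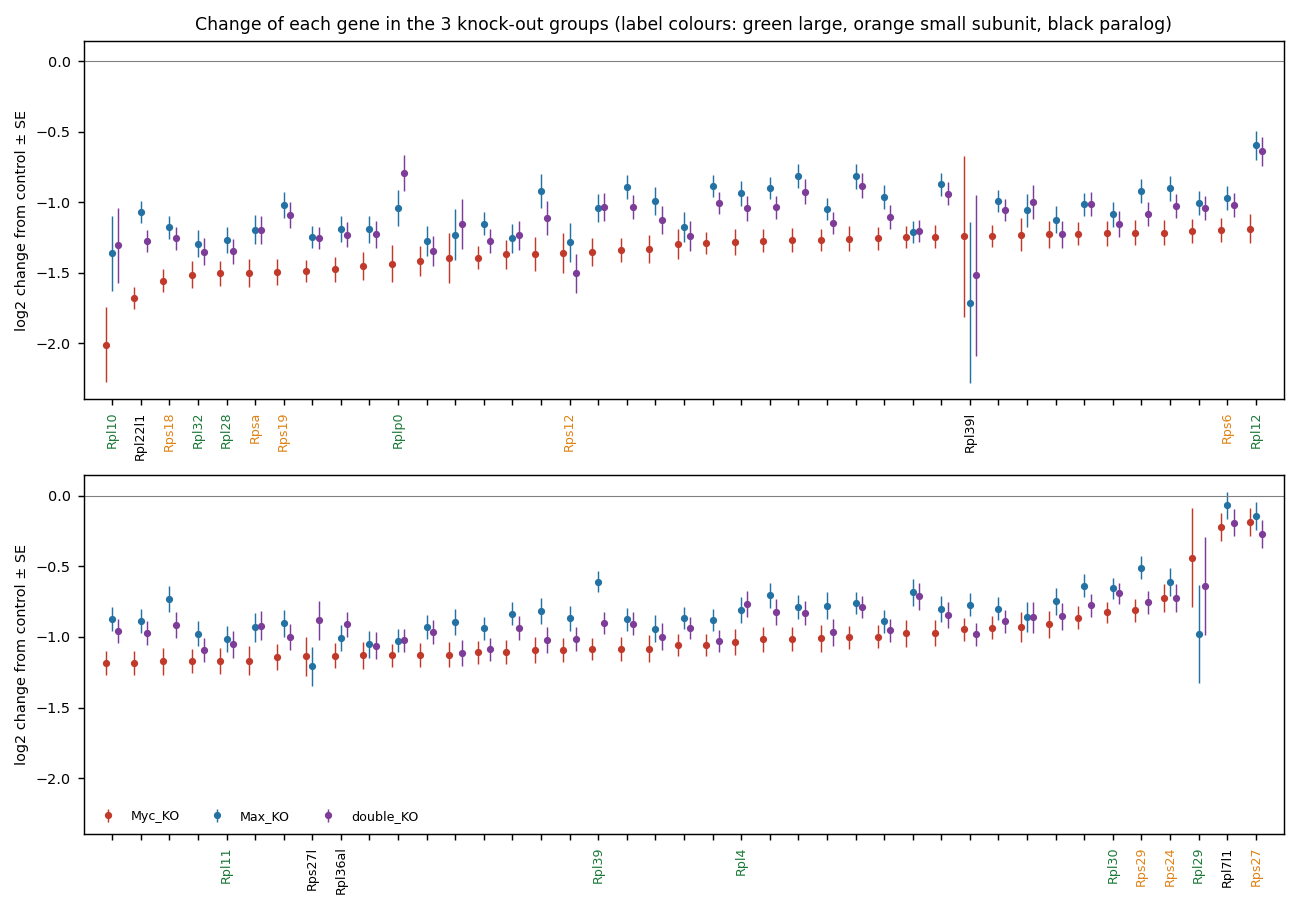
Log2 change from control (points, with SE as bars) of each of the 82 genes in Myc_KO, Max_KO and double_KO, ordered by the change in Myc_KO over 2 rows, with some of the genes described in the text labelled. The quartiles in Myc_KO are -1.29 and -1.07, while Rpl7l1 (-0.22) and Rps27 (-0.19) stand at the right end.

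By place in the ribosome, every role list had all its tested genes lower in each knock-out. The stalk that recruits translation factors, formed by Rplp0, Rplp1 and Rplp2, had 3 of 3 genes lower in each knock-out, with medians of -1.27 in Myc_KO, of -0.82 in Max_KO and of -0.79 in double_KO. The log2 changes, here and in the brackets that follow for Myc_KO, Max_KO and double_KO in that order, were Rplp1 (-1.004, -0.76 and -0.79) and Rplp2 (-1.27, -0.82 and -0.92) for the acidic pair and Rplp0 (-1.44, -1.04 and -0.79) for their anchor. With the reads of a near-identical copy added, Rplp0 had -1.43, -1.05 and -1.03. Rpl5 and Rpl11, which bind the smallest ribosomal RNA and, when free, the p53 inhibitor Mdm2, both fell in each knock-out. Rpl5 had 1214 and 1147 RPM in Myc_KO, 1538 and 1514 RPM in Max_KO, 1509 and 1410 RPM in double_KO, and 2859 and 2735 RPM in control libraries, and Rpl11 changed by -1.17 (log2) in Myc_KO, by -1.01 in Max_KO and by -1.05 in double_KO. The 9 genes around the peptide exit tunnel all fell in each knock-out, with medians of -1.13, -0.99 and -1.06. Among them Rpl39, a short protein inside the tunnel, fell by 1.09 on the log2 scale in Myc_KO, by 0.61 in Max_KO and by 0.90 in double_KO. The others besides Rpl4 and Rpl22 were Rpl17 (-1.26, -0.96 and -1.10), Rpl19 (-1.13, -1.03 and -1.02), Rpl23a (-1.13, -1.05 and -1.06), Rpl26 (-1.39, -1.15 and -1.27), Rpl31 (-1.13, -0.89 and -1.11) and Rpl35 (-1.27, -1.05 and -1.15). The 5 genes of the peptidyl transferase surroundings and of late joining (Rpl3, Rpl8, Rpl10, Rpl10a and Rpl24) all fell, with medians of -1.37, -1.19 and -1.23. Those not yet given were Rpl8 (-1.19, -0.87 and -0.96), Rpl10a (-1.48, -1.19 and -1.23) and Rpl24 (-1.37, -1.26 and -1.23). Outside the role lists, Rpl9 (-0.93, -0.80 and -0.89) of the large subunit had one of the smaller falls in Myc_KO.

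In the small subunit, the 5 tested genes of mRNA entry and decoding (Rps2, Rps3, Rps15, Rps23 and Rps27a) all fell, with medians of -1.26 in Myc_KO, of -0.87 in Max_KO and of -0.97 in double_KO. Among them were Rps3 (-1.29, -0.89 and -1.004), Rps15 (-1.01, -0.78 and -0.97) and Rps23 (-1.08, -0.87 and -0.91), of which Rps3 lies at the entry and Rps23 near the decoding centre. All 11 genes of the head and beak fell, with medians of -1.27, -0.99 and -1.08, and so did the 5 at the mRNA exit, with medians of -1.29, -1.01 and -1.13. Other head genes besides Rps18, Rps19 and Rpsa included Rps10 (-1.27, -0.90 and -1.04), Rps16 (-1.13, -0.93 and -0.97), Rps20 (-1.18, -0.89 and -0.97) and Rps28 (-1.33, -0.99 and -1.13). Among the genes at the exit were Rps26 (-1.29, -1.18 and -1.24), Rps14 (-1.17, -0.98 and -1.09), Rps28 (-1.33, -0.99 and -1.13) and Rpsa (-1.50, -1.19 and -1.20). Rps12, of the beak, had 296 and 329 RPM in Myc_KO, 286 and 379 RPM in Max_KO, 262 and 305 RPM in double_KO, and 834 and 771 RPM in control libraries, with no overlap between knock-outs and controls. Its log2 changes were -1.36, -1.28 and -1.50 in the same order, and with its 2 copies added -1.28, -1.10 and -1.15. The smallest falls in the head were those of Rps29, -0.81 in Myc_KO, -0.51 in Max_KO and -0.75 in double_KO as log2 changes. Rps6, the substrate of S6 kinase, had 1204 and 1156 RPM in Myc_KO, 1337 and 1427 RPM in Max_KO, 1321 and 1345 RPM in double_KO, and 2802 and 2609 RPM in control libraries. Its changes of -1.20, -0.97 and -1.02 were close to the median of the set.

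Among the subunit genes, Rps27 and Rpl29 were not called in any knock-out; Rpl29 is described with its copies. Rps27 encodes a zinc-finger protein of the small subunit. Its transcript stood at 757 and 673 RPM in Myc_KO and at 737 and 734 RPM in Max_KO. In double_KO it stood at 727 and 622 RPM, against 837 and 787 RPM in control libraries. Every knock-out library lay below both controls, but close to them. The log2 change was -0.19 ± 0.10 (SE) in Myc_KO with an adjusted p of 0.162, -0.14 in Max_KO with an adjusted p of 0.285 and -0.27 in double_KO with an adjusted p of 0.0613, all by limma. In double_KO it was called when double_KO replicate 1 was left out (-0.38), and under quantile normalization the value in Myc_KO was 0.0242. Relative to the median member of the same library, Rps27 stood at 102% and 92.0% in Myc_KO, 91.3% and 83.9% in Max_KO, 90.9% and 73.5% in double_KO, and 46.2% and 47.8% in control libraries. Among subunit genes called lower in Myc_KO, Rps24 had the smallest fall, -0.72, with -0.61 in Max_KO and -0.73 in double_KO, although under quantile normalization its value in Myc_KO was 0.0044. Rpl30, of the large subunit, had -0.82, -0.65 and -0.69, all called lower.

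The paralogs did not follow their partners in one way. Rps27l, which is known as a p53 target, had 50.01 and 60.2 RPM in Myc_KO, 56.8 and 48.2 RPM in Max_KO, 59.2 and 72.6 RPM in double_KO, and 120 and 121 RPM in control libraries. It fell in all 3 knock-outs, by 1.14, 1.21 and 0.88 on the log2 scale, while Rps27 was not called. The difference between the 2 genes was not tested. As a ratio within each library, which no scaling changes, Rps27l amounted to 6.61% and 8.95% of Rps27 in Myc_KO, 7.71% and 6.57% in Max_KO, 8.15% and 11.7% in double_KO, and 14.3% and 15.4% in control libraries. No knock-out library overlapped with the controls in this ratio.

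Rpl22l1, the paralog of Rpl22, had 114 and 115 RPM in Myc_KO, 176 and 174 RPM in Max_KO, 153 and 150 RPM in double_KO, and 385 and 350 RPM in control libraries. It had the largest called fall of the paralogs in Myc_KO, with a log2 change of -1.68 ± 0.08 (SE) and an adjusted p of 4.34e-05 by limma, against -1.07 in Max_KO and -1.27 in double_KO. Rpl22 itself fell by 1.24, 0.99 and 1.05 on the log2 scale. Rpl22l1 amounted to 39.7% and 41.7% of Rpl22 in Myc_KO, 53.7% and 51.0% in Max_KO, 48.8% and 45.9% in double_KO, and 55.2% and 55.2% in control libraries. By the titles, the ratio was thus lowest in Myc_KO, and the 4 groups did not overlap. With groups from the descriptions, Myc_KO and double_KO overlap in this ratio. Rpl36al and Rpl36a fell together in every knock-out, and their ratio was 66.4% and 66.5% in Myc_KO, 54.3% and 52.0% in Max_KO, 60.4% and 65.2% in double_KO, and 58.5% and 56.8% in control libraries.

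Rpl7l1 encodes a relative of Rpl7 that has been seen in immature large subunits of human cells. It had 152 and 142 RPM in Myc_KO, 169 and 157 RPM in Max_KO, 153 and 146 RPM in double_KO, and 184 and 158 RPM in control libraries, and it was not called in any knock-out (adjusted p of 0.0942 in Myc_KO, of 0.608 in Max_KO and of 0.150 in double_KO, limma). Its log2 change was -0.22 in Myc_KO, -0.07 in Max_KO and -0.19 in double_KO, and with libraries scaled to the same total the value in Max_KO was 0.0384. Rpl7 fell in all 3, so that Rpl7l1 amounted to 13.7% and 13.6% of Rpl7 in Myc_KO, 13.9% and 12.7% in Max_KO, 13.1% and 12.5% in double_KO, and 8.01% and 7.27% in control libraries. Every knock-out library lay above both controls in this ratio. Rpl39l, best known from the testis, was near the limit of detection, with 0.457 and 0.802 RPM in Myc_KO, 0.333 and 0.559 RPM in Max_KO, 0.503 and 0.494 RPM in double_KO, and 1.12 and 1.94 RPM in control libraries. Since it passed the filter only through the controls it had to be lower in the knock-outs, so its values are a description. Its call in Max_KO (adjusted p = 0.0432, limma) was lost when any 1 of 6 libraries was left out: either library of Max_KO, double_KO or control.

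**Figure D4:**
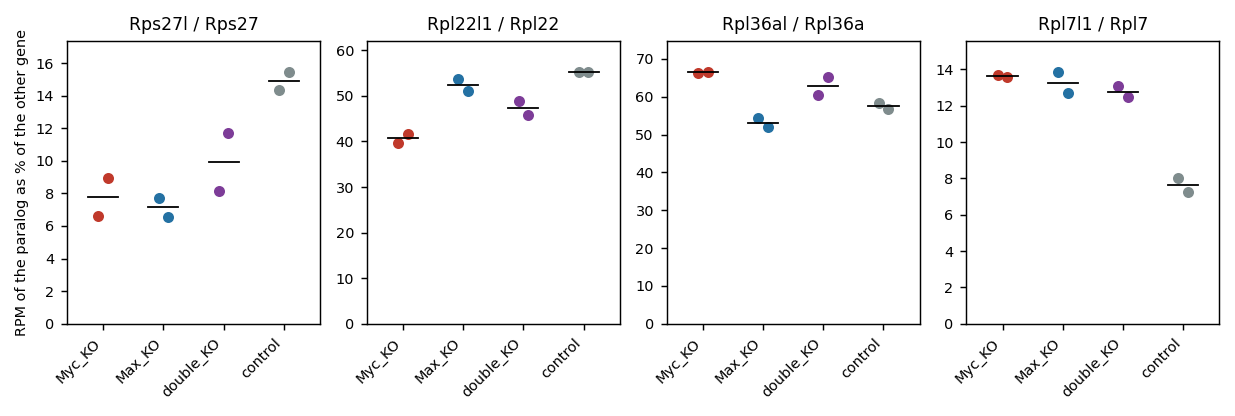
RPM of 4 paralogs as a percentage of the RPM of their partner gene in the same library, with both libraries of Myc_KO, Max_KO, double_KO and control as points and their mean as a line. Rps27l over Rps27 is lower in every knock-out library than in the controls, Rpl22l1 over Rpl22 is lowest in Myc_KO, and Rpl7l1 over Rpl7 is higher in every knock-out library.

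For several members the reads were divided between the gene and near-identical copies, so that their single values are uncertain. The table held 25 transcripts of other genes that matched a member at 90% identity or more over at least 80% of the shorter sequence, and these belonged to 18 members. Only pseudogenes of the table, genes named Gm or -ps, and Rps27rt were searched. Estimated reads were whole in no library for 20 members, some of them without a copy found, such as Rps18. Rpl10, which joins the large subunit late and sits near the peptidyl transferase centre, had the lowest change of all, -2.01 in Myc_KO. It stood at 159 and 286 RPM in Myc_KO, 394 and 284 RPM in Max_KO, 348 and 348 RPM in double_KO, and 985 and 752 RPM in control libraries. Its copy Rpl10-ps3 held 83.4% and 70.8% of their joint reads in Myc_KO, 63.7% and 74.4% in Max_KO, 66.4% and 69.9% in double_KO, and 51.6% and 59.95% in control libraries. With the copy added, the sum was 960 and 978 RPM in Myc_KO, 1085 and 1109 RPM in Max_KO, 1035 and 1158 RPM in double_KO, and 2033 and 1879 RPM in control libraries. For Rpl10 alone, the call in double_KO was lost when control replicate 1 was left out. The change of the sum was -1.01 in Myc_KO, -0.83 in Max_KO and -0.84 in double_KO.

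Rpl29, of the large subunit, was not called lower in any knock-out, with changes of -0.44 (log2, Myc_KO), -0.98 (Max_KO) and -0.64 (double_KO). Its own estimates were 434 and 566 RPM in Myc_KO, 451 and 257 RPM in Max_KO, 408 and 456 RPM in double_KO, and 969 and 466 RPM in control libraries, so that Myc_KO overlapped with the controls and the other knock-outs lay below both. Leaving out control replicate 1 turned the value in Myc_KO to 0.0901, and the one in Max_KO was called without Max_KO replicate 1 or without control replicate 2. With its 3 copies added, the sums were 524 and 567 RPM in Myc_KO, 542 and 474 RPM in Max_KO, 493 and 551 RPM in double_KO, and 1200 and 892 RPM in control libraries. The sum fell by 0.92, 1.03 and 0.99 on the log2 scale, with adjusted p-values of 0.00128 in Myc_KO, of 0.00111 in Max_KO and of 0.00132 in double_KO by limma, an alternative chosen after seeing the data. Rplp0 and its copy Gm8730 showed the split in 1 library: the copy held 20.2% of their reads in double_KO replicate 1 and 41.3% to 42.8% in the 7 other libraries. The summed level in that library, 2400 RPM, lay beside the 2438 RPM of double_KO replicate 2. Rpl27 held few reads beside its copy Rpl27-ps3, which took 90.1% to 92.7% of their joint reads in every library. Adding all copies gave 79, 80 and 79 members lower in Myc_KO, Max_KO and double_KO, and Rps27 with its copy was still not called in any of them (adjusted p of 0.156, 0.291 and 0.0626).

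**Figure D5:**
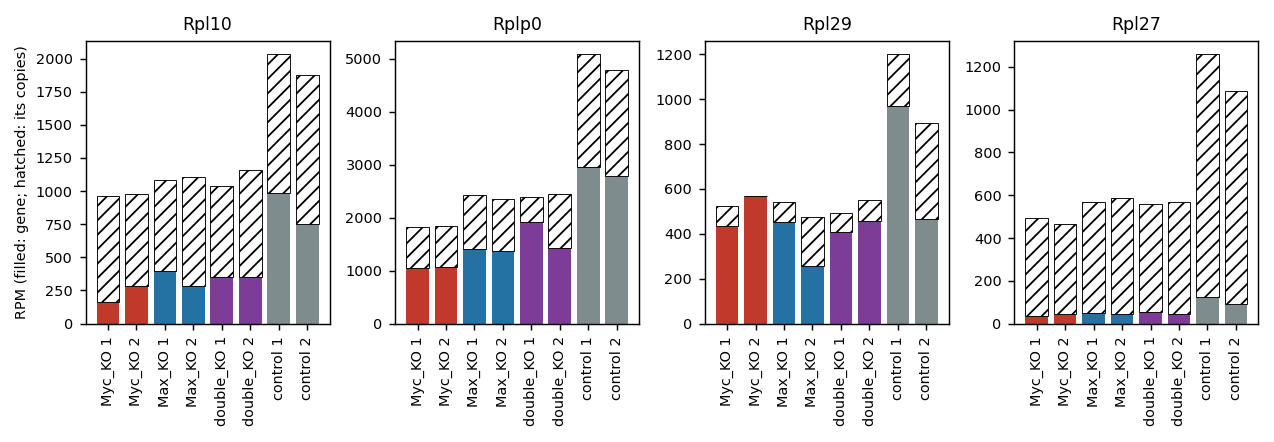
RPM of Rpl10, Rplp0, Rpl29 and Rpl27 (filled bars) and of their near-identical copies in the table (hatched, stacked on top) in each library of Myc_KO, Max_KO, double_KO and control. The split between gene and copy differs among libraries for Rpl10, Rpl29 and, in double_KO replicate 1, Rplp0, while the summed heights are lower in every knock-out library than in the controls.

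Set against each other, the knock-outs gave few or no calls. In Max_KO, 12 members were called higher than in Myc_KO, where 2.43% of all tested genes were called higher, and none was called lower. They were Rpl5, Rpl12, Rpl22l1, Rpl36a, Rpl39, Rplp2, Rps2, Rps3, Rps4x, Rps10, Rps18 and Rps19. At an unadjusted p under 0.05, 50 members were higher and none lower, where 10.2% of all tested genes were higher and 9.14% lower. The median log2 difference of the 82 was 0.23, and both Max_KO libraries lay above both Myc_KO libraries for 68 members, where 24% of all tested genes did so. Rpl12, a protein at the base of the stalk, had 827 and 911 RPM in Myc_KO, 1244 and 1377 RPM in Max_KO, 1295 and 1245 RPM in double_KO, and 2122 and 1844 RPM in control libraries. Its difference between Max_KO and Myc_KO was 0.59 ± 0.10 (SE, adjusted p = 0.0224, limma), and the 2 groups did not overlap. This count changed with the libraries and groups: it was 1 without the 2 libraries of disputed label, 0 with groups from the descriptions, and 1 to 7 when any 1 library was left out. Rpl22l1 was called with any 1 library left out.

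Between double_KO and Myc_KO limma called no member, where 0.416% of all tested genes were called higher. At an unadjusted p under 0.05, 29 members were higher and none lower, where 7.63% of all tested genes were higher and 5.2% lower, and with voom weights none was called. The median difference was 0.16, with a median SE of 0.09. The differences ran from -0.28 for Rpl39l, near the limit of detection, to 0.70 for Rpl10, or 0.18 for Rpl10 with its copy added. Both double_KO libraries lay above both Myc_KO libraries for 55 members, where 22.5% of all tested genes did so. Between double_KO and Max_KO no member was called either, where 0.04% of all tested genes were called, and voom weights gave none. At an unadjusted p under 0.05, 5 members were lower and 1 higher, where 2.25% of all tested genes were lower and 3.8% higher. The median difference there was -0.07, between -0.29 for Rpl39 and 0.34 for Rpl29, or 0.04 for Rpl29 with its copies added. For 40 members both double_KO libraries lay below both Max_KO libraries, where 15.4% of all tested genes did so. These 2 comparisons share the double_KO libraries. The numbers in the titles fall in 2 ranges, each with 1 library of every knock-out and the first with both controls, and knock-out libraries of 1 range deviated together from their group means (correlations across genes of 0.315 to 0.37). With the range as a term, 3 members were called higher in double_KO than in Myc_KO, 15 in Max_KO than in Myc_KO, and none differed between double_KO and Max_KO.

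The interaction term (the change in double_KO less the changes in Myc_KO and in Max_KO, each against control) asks whether the change with both genes lost differs from the sum of the 2 single changes, and a positive value means a smaller fall than that sum. It was positive and called for 78 of 82 members. Its median over the 82 was 1.13, beside -1.02 for the observed change in double_KO. Of all 12489 tested genes, 12.3% (1538) were called positive, and 1868 were called negative. Among 20 other TOP genes 15 were called positive, and among 78 mitochondrial ribosomal protein genes 28 were. Rpsa had an interaction of 1.5 ± 0.14 (SE, adjusted p = 0.000905, limma), with single changes of -1.50 in Myc_KO and -1.19 in Max_KO and a change of -1.20 in double_KO. The 4 members not called were Rps27, Rpl7l1, Rpl29 and Rpl39l. With groups from the descriptions the count was 72.

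Genes of ribosomal proteins outside the naming rule, and other TOP mRNAs, mostly moved the same way. Of 20 other TOP genes tested, 17 were lower in Myc_KO, 15 in Max_KO and 16 in double_KO, none was called higher in any of them, where 21.4%, 17.4% and 16.8% of all tested genes were called lower, and the medians were -0.69, -0.58 and -0.52. Fau, which encodes a ubiquitin-like protein fused to a small-subunit protein, had a log2 change of -1.31 in Myc_KO, of -1.05 in Max_KO and of -1.20 in double_KO. Rack1, a scaffold on the small subunit, had -1.15, -0.90 and -0.94, and the elongation factor gene Eef1b2 had -1.34, -1.14 and -1.10. The median of the list was smaller in size than that of the 82 in each knock-out, a description only. A further list held 9 tested host genes of small nucleolar RNAs, transcripts of the TOP type whose introns hold guide RNAs for ribosomal RNA modification. Of these, 8 were called lower in Myc_KO, 5 in Max_KO and 6 in double_KO, beside the same 21.4%, 17.4% and 16.8% of all tested genes. None was called higher, and the medians were -0.93, -0.67 and -0.80. Their median SE was 0.24, against 0.09 for the 82 members. Gas5 had -1.13, -0.67 and -0.80, Snhg5 had -0.89, -0.70 and -0.71, and Snhg6 had -1.41, -1.05 and -1.07.

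Of the mitochondrial ribosome's 78 tested protein genes (symbols that begin with Mrpl or Mrps), 44 were called lower in Myc_KO, 33 in Max_KO and 31 in double_KO, beside the same 21.4%, 17.4% and 16.8% of all tested genes, none was called higher, and the medians were -0.39, -0.34 and -0.28. Of all tested genes, 24% were called higher in Myc_KO, 22.3% in Max_KO and 21.8% in double_KO, beside 21.4%, 17.4% and 16.8% called lower. Of 24 tested chaperones, importers and late assembly factors, 7 were lower and 3 higher in Myc_KO, while 1 fell and 5 rose in each of Max_KO and double_KO. Ltv1, a late small-subunit assembly factor, rose by 0.32, 0.89 and 0.88 on the log2 scale, and Naa10, an acetyltransferase of nascent chains, fell by 0.74, 0.87 and 0.69. Eif6, which keeps immature large subunits from joining, fell in Myc_KO by 0.59 and had values of -0.28 in both Max_KO and double_KO that were not called.

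Of 17 genes of TOP translation control and the mTORC1 to S6 kinase arm, Myc_KO had 8 higher and 3 lower, Max_KO 7 higher and 1 lower, and double_KO 9 higher and 3 lower, beside 24%, 22.3% and 21.8% of all tested genes called higher and 21.4%, 17.4% and 16.8% called lower. Eif4ebp1, the translation repressor that mTORC1 inactivates, fell by 1.47, 1.15 and 0.95 on the log2 scale, while its relative Eif4ebp2 rose by 0.60, 0.70 and 0.65. Rps6ka3, a ribosomal S6 kinase of the MAP kinase pathway, rose by 1.36, 0.95 and 1.10. Of 11 genes of the ribosomal protein to p53 checkpoint, Myc_KO had 7 lower and 2 higher, Max_KO 8 lower and 1 higher, and double_KO 6 lower and 1 higher. The p53 targets Phlda3 (-1.42, -1.57 and -1.21) and Bax (-0.82, -0.68 and -0.65) fell, and Sesn1, another p53 target, rose by 1.34, 0.79 and 0.89. Of 13 genes that respond to stalled ribosomes, 4 were lower and 3 higher in Myc_KO, and 3 fell and 2 rose in each of Max_KO and double_KO; these counts are to be read against the same shares of all tested genes. Ascc3, a helicase that splits collided ribosomes, rose by 1.53, 1.18 and 1.30, Ltn1, a ubiquitin ligase for stalled nascent chains, by 0.74, 0.68 and 0.76, and Eif4e2, a cap-binding repressor, fell by 0.65, 0.66 and 0.57. Of 11 transcription factors known at ribosomal protein promoters, Myc and Max included, Myc_KO had 2 lower and 4 higher. Max_KO had 1 lower and 5 higher, and double_KO 2 lower and 5 higher. Myc and Max are the knocked-out genes, so calls of them as lower follow from the knock-outs. The counts here and for the p53 checkpoint are to be read against the same shares of all tested genes. Gabpa, an ETS factor, rose by 0.59, 0.69 and 0.67.

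The start regions of 62 of the 82 members were in a table of mouse RefSeq promoters (GRCm38.p6), which covers 250 bases before to 50 after each annotated start. To show what the start of the genes that changed most and least looks like, the 15 bases before and the 15 bases from the start on are printed for the 5 members with a single annotated start and the lowest changes in Myc_KO, for Rpl12, which was higher in Max_KO than in Myc_KO, and for Rpl7l1 and Rps27, the 2 that changed least. By its own estimate Rpl10 is the first of these (-2.01), but its reads were divided with a copy. With the copy added its change in Myc_KO was -1.01, beside a median of -1.19 for the 82 members. Capitals mark the longest run of C and T in the window.
Rpl10, chrX:74270801-74270830, plus strand: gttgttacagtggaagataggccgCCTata
Rpl22l1, chr3:28805493-28805522, plus strand: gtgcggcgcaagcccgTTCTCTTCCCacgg
Rps18, chr17:33955651-33955680, minus strand: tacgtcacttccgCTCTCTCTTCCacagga
Rpl28, chr7:4792950-4792979, plus strand: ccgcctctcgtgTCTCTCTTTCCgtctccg
Rpsa, chr9:120127751-120127780, plus strand: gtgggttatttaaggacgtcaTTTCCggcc
Rpl12, chr2:32961697-32961726, plus strand: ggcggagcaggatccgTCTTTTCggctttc
Rpl7l1, chr17:46782642-46782671, minus strand: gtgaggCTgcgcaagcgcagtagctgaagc
Rps27, chr3:90213634-90213663, minus strand: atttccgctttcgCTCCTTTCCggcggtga
Rps27, with the smallest change of all in Myc_KO, carried a run of 9 pyrimidines across its start, and Rps18 and Rpl28, with some of the lowest changes, carried runs of 11. In Rpl7l1 the longest run in the window was 2 bases.

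Over all 62 members found, 48.4% had a run of at least 8 C or T within 20 bases of an annotated start read along the transcript's strand, against 18.4% of the 27025 genes in the promoter table and 19.0% of the tested genes found there. Members with such a run had a median log2 change of -1.17 in Myc_KO (30 genes), and those without one -1.21 (32 genes). The E-box CACGTG, the sequence that Myc and Max bind best and that reads alike on both strands, was in the promoter window of 6 members, or 9.68%, against 8.09% of all genes and 12.1% of tested genes. Members with it had a median change of -1.17 in Myc_KO, of -1.01 in Max_KO and of -1.02 in double_KO, and the 56 without it -1.19, -0.93 and -1.002. Of those with it, 3 are shown with 12 bases on each side, the E-box in capitals, since they are the places in these windows where a Myc and Max dimer would be looked for first.
Rpl13a, chr7:45128928-45128957, minus strand: cgctccgaaaccCACGTGacatcccgcccc
Rpl14, chr9:120571337-120571366, plus strand: ccaagctcactgCACGTGtctgaggagaag
Rps19, chr7:24884781-24884810, plus strand: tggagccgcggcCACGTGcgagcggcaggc
CGGAAG, the core that ETS factors such as Gabpa bind, searched on both strands and able to overlap a run of C and T as CTTCCG, was in 69.4% of the 62 members, against 18.8% of all genes and 36.9% of tested genes. The medians in Myc_KO were -1.17 with it and -1.24 without it. A match is a description of these windows only.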

How the data were processed

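The authors deposited 1 table of log2 values, in which each is log2 of (estimated reads + 0.5) scaled (RPM) to an effective library size, as read from the values. The submitters' processing notes list RSEM 1.2.3, cutadapt and CASAVA 1.8 and the build GRCm38. Parameters, annotation and strand setting: not given in the sources used here. Estimated reads were recovered by taking the lowest value of a library as 0 reads, which made all values multiples of 0.01 read within 0.0002 read; RPM are these reads over the effective size, times 10 to the power 6. Since they are not whole, no count test was run. Symbols came from GENCODE vM21; 59 genes had none. All 8 libraries were fitted as 4 groups with limma 3.58.1 in R 4.3.3 (mean-variance trend, 4 residual and 4.23 prior degrees of freedom), two-sided, adjusted over 12489 genes, and the script was tested on simulated data. Copies were found with BLAST 2.17.0. Members and lists were chosen with earlier results of these data known. Genes named follow a rule: per comparison and subunit the 3 lowest and 3 highest changes, the 3 with most reads, paralogs, members not called, role lists and up to 3 called genes per pathway list; Rpl5 to Rps4x called between Max_KO and Myc_KO, and Rplp0, Rpl27, Rpl22 and Rpl7 as partners, were added after their values were seen. Alternatives were other scalings, filters, groups, libraries, blocks and eBayes settings. Protein sequences were not used here. Some members and listed genes that fall under this rule are not reported here by name.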

Additional observations from a re-analysis of the deposited data

Results flagged for a closer look

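The effect of losing Max differed with the state of Myc for most of the set. The interaction of the 2 losses was called for 78 of 82 members by limma, all positive, with a median of 1.13 on the log2 scale. Of the 12489 genes tested, 1538 were called positive and 1868 negative. With Myc lost as well, double_KO stood 0.16 above Myc_KO in the median member, with no member called (3 with a term for the 2 ranges of title numbers), while with Myc present Max_KO stood at -0.93 against control. The T-cell, natural killer and myeloid markers, which were higher in all 6 knock-out libraries than in both controls, and the mitochondrially encoded share, which was lower in all 6, moved with the same contrast, and their part in the result was not tested.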

How the results depend on the processing

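The counts of members lower in each knock-out, and the count in the interaction, stayed within 1.5 times their values under every alternative run. Only the groups compared gave no value for the interaction. Quantile normalization, which forces the same distribution on all libraries, gave medians of -0.66 (Myc_KO), -0.47 (Max_KO) and -0.51 (double_KO) and 76, 70 and 70 members lower. With libraries scaled to the same total, the median of all tested genes was 0.15 in Myc_KO, 0.12 in Max_KO and 0.14 in double_KO. On the authors' scale it was 0.00, 0.02 and 0.02. The share of higher among all calls was 66.4%, 66.7% and 68.9% at the same total, against 52.8%, 56.2% and 56.6%. The members' medians at the same total were -1.04, -0.82 and -0.90. With groups from the descriptions the medians were -1.09 in Myc_KO and -1.10 in double_KO, with or without the replicate block. Leaving out 1 library gave medians of -1.24 to -1.13 in Myc_KO, -1.001 to -0.85 in Max_KO and -1.08 to -0.96 in double_KO.

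The 12 members called higher in Max_KO than in Myc_KO were the least stable count: 0 with groups from the descriptions (also with the replicate block), 0 with no trend, 0 with only the groups compared, 1 without the 2 disputed libraries, 1 at an adjusted p of 0.01, 2 with the replicate block on the titles' groups (1 of them lower), and 1 to 7 when 1 library was left out. With a term for the 2 ranges of library numbers in the titles, 3 members were called in double_KO against Myc_KO and 15 in Max_KO against Myc_KO; knock-out libraries of 1 range correlated at 0.315 to 0.37 in their deviations. Same-numbered libraries of different description groups correlated between -0.105 and 0.264 in their deviations from the group mean. With 2 libraries a group, differently numbered libraries mirror this range (-0.264 to 0.105). The value of 0.264 belongs to libraries that share a group by the titles. These values therefore cannot decide whether the replicate numbers of the descriptions pair the libraries. With the block on the titles' groups, 78 members were lower in Myc_KO, 80 in Max_KO and 79 in double_KO. By the titles, the 2 Myc_KO libraries share a replicate number and the 2 double_KO libraries share the other. This block was therefore estimated from the control and Max_KO pairs alone and shifted every comparison that involves Myc_KO or double_KO. For these comparisons it is not a correction by pairs.

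Shares of reads in the 82 genes were 6.39% in Myc_KO, 7.43% in Max_KO, 7.14% in double_KO and 13.1% in control as means. With -ps copies added they were 6.56% in Myc_KO and 7.33% in double_KO, with all copies added 6.68%, 7.76%, 7.45% and 13.7%, and without mitochondrially encoded genes 6.54% in Myc_KO, 7.33% in double_KO and 13.8% in control. Some single values changed sign. Rpl29 in Myc_KO ran from -0.966 to 0.0901 when 1 library was left out (0.0901 without control replicate 1). With the replicate block on the titles' groups, which shifts Myc_KO as a whole, it was 0.0285. Rpl7l1 in Max_KO ran from -0.179 to 0.0432 when 1 library was left out (0.0432 without control replicate 1) and was 0.0384 at the same total. Under quantile normalization Rps24 (0.0044) and Rps27 (0.0242) in Myc_KO and Rpl4 (0.0333) in double_KO turned positive. Without that normalization Rps24 in Myc_KO and Rpl4 in double_KO were called lower. Max in Myc_KO was 0.25 by titles and -0.28 with groups from the descriptions, with or without the block. The cause was not tested. With 2 libraries a group, the spread rests on 4 residual degrees of freedom.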
